A study of Rattus norvegicus with 18 samples.

Results

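Fos, Fosb and Junb encode subunits of activator protein 1 (AP-1), and their transcripts were followed in the rat prelimbic cortex (PL) and dorsal hippocampus (dHC) before and after avoidance training. The 3 genes were chosen by gene ID, as the rows ENSRNOG00000008015 (Fos), ENSRNOG00000046667 (Fosb) and ENSRNOG00000042838 (Junb) of the count tables, 3 of 32662 gene rows. All animals were adult rats of the outbred Long-Evans strain, and no allele or drug is named for any group. In inhibitory avoidance, a rat receives a foot shock in a chamber and afterwards avoids entering it. Naive rats stayed in the home cage, and trained rats were killed 1 h or 6 d after the task. The 2 regions and 3 conditions made 6 groups of 3 pools, and a pool combined the RNA of 5 rats, which gave 18 libraries. The home cage group had neither the shock nor the handling and chamber, so that these parts of training cannot be told apart. Per the labels' protocols, Fos was also measured by RT-PCR in every animal before pooling, in order to check its induction by training. Whether that measurement decided which animals entered a pool is not given in the sources used here. The labels do not say whether the PL and dHC pools came from the same rats.

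AP-1 is a pair of proteins joined through a leucine zipper. FOS and FOSB bind DNA mainly with a partner of the JUN family. JUNB can also pair with other JUN proteins and is a weaker activator than JUN at many AP-1 sites. Fos, Fosb and Junb are immediate-early genes: in neurons, calcium entry and MAP kinase signalling switch on their transcription through factors that are already present (CREB, SRF and ELK1), so that no new protein is needed. Their messages are short-lived, and Fos is widely used to mark neurons that were recently active. Fosb also gives a truncated splice form, ΔFosB, a stable protein. Counts per gene do not separate the splice forms.

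The stretch before a gene's start site is where the response elements of such factors are looked for. The RefSeq promoter table (build GRCr8) matched 2 of the 3 genes, Fosb and Junb. The Fosb window lies inside the annotated span of the gene and is not shown. For Junb, whose transcript rose in both regions as described next, the 250 bases before the start site (chr19:40080876-40081125, plus strand, GRCr8) are printed 5′ to 3′ with motif matches in capitals.
Junb: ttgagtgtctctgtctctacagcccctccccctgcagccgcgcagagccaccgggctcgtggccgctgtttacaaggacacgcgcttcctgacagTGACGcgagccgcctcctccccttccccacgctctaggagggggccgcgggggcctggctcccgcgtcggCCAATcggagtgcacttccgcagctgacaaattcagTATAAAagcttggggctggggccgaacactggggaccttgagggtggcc
The capitals mark, in this order, the half-site of the cAMP response element bound by CREB (TGACG, positions -155 to -151 from the start site), a CCAAT box (CCAAT, -85 to -81) and a TATA box (TATAAA, -49 to -44). Searched on both strands, these were found in 18.2%, 34.0% and 12.9% of 33469 windows of the same length. The full cAMP response element (TGACGTCA, which contains the half-site), the AP-1 site (TGANTCA) and the CArG box bound by SRF were not found in this window. They occur in 1.59%, 6.34% and 1.497% of the windows. A match is a description of letters only.

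Levels are given in CPM, the reads of a gene scaled to a common total of gene reads per library, with TMM factors (trimmed mean of M values), which correct for library composition. The libraries held 7463875 to 9215695 gene reads, and a limit of 3 reads corresponded to 0.326 to 0.402 CPM. All member values lie above it. The smallest count of any member was 17 (Fos in a naive dHC pool) and the largest 1207 (Junb in a PL pool at 1 h). All 3 genes passed the filter on low counts in every comparison. Comparisons were tested with edgeR's quasi-likelihood F test, and a gene is called where its p, adjusted by the Benjamini-Hochberg method over all genes tested, is under 0.05. RNA came from punches of whole tissue, in which fewer cells with a transcript and less of it per cell cannot be told apart. The tables pair no other ID with a name, so the tissue and cell type of the punches were not checked against marker genes.

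In PL, all 3 genes rose 1 h after training. Fos had 7.72, 4.11 and 8.88 CPM in naive PL pools 1, 2 and 3, from 69, 37 and 73 reads. At 1 h it had 57.4, 51.8 and 61.8 CPM, from 506, 442 and 543 reads. The lowest trained pool thus stood far above the highest naive pool. The means were 6.90 ± 2.49 and 57.0 ± 5.06 CPM (SD, n = 3), an 8.34-fold rise with a 95% interval of 6.66 to 10.4 (log2 fold change 3.06, SE 0.16, edgeR adjusted p = 1.09e-11). By fold, this ranked 2 of 14318 genes tested in PL.

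Fosb had 9.74, 8.67 and 10.8 CPM in the naive PL pools and 44.1, 41.6 and 51.1 CPM at 1 h. The groups did not overlap, and the naive pools were close to one another. The means of 9.74 ± 1.08 and 45.6 ± 4.96 CPM (SD, n = 3) corresponded to a 4.71-fold rise, with an interval of 3.98 to 5.57 (log2 fold change 2.24, SE 0.12, edgeR adjusted p = 1.32e-11). Junb had 39.7, 40.7 and 43.3 CPM in naive PL and 136.8, 118 and 132 CPM at 1 h. Again every trained pool was above every naive pool. Junb rose 3.15-fold, with an interval of 2.83 to 3.50 (log2 fold change 1.66, SE 0.07, edgeR adjusted p = 1.35e-12). The rises of Fosb and Junb ranked 5 and 11 of the 14318 genes by fold, and Junb, whose pools varied least, ranked 2 by p. Over all genes tested in PL, 0.782% were called higher at 1 h, and in 9.74% all 1 h pools lay above all naive pools.

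**Figure D1:**
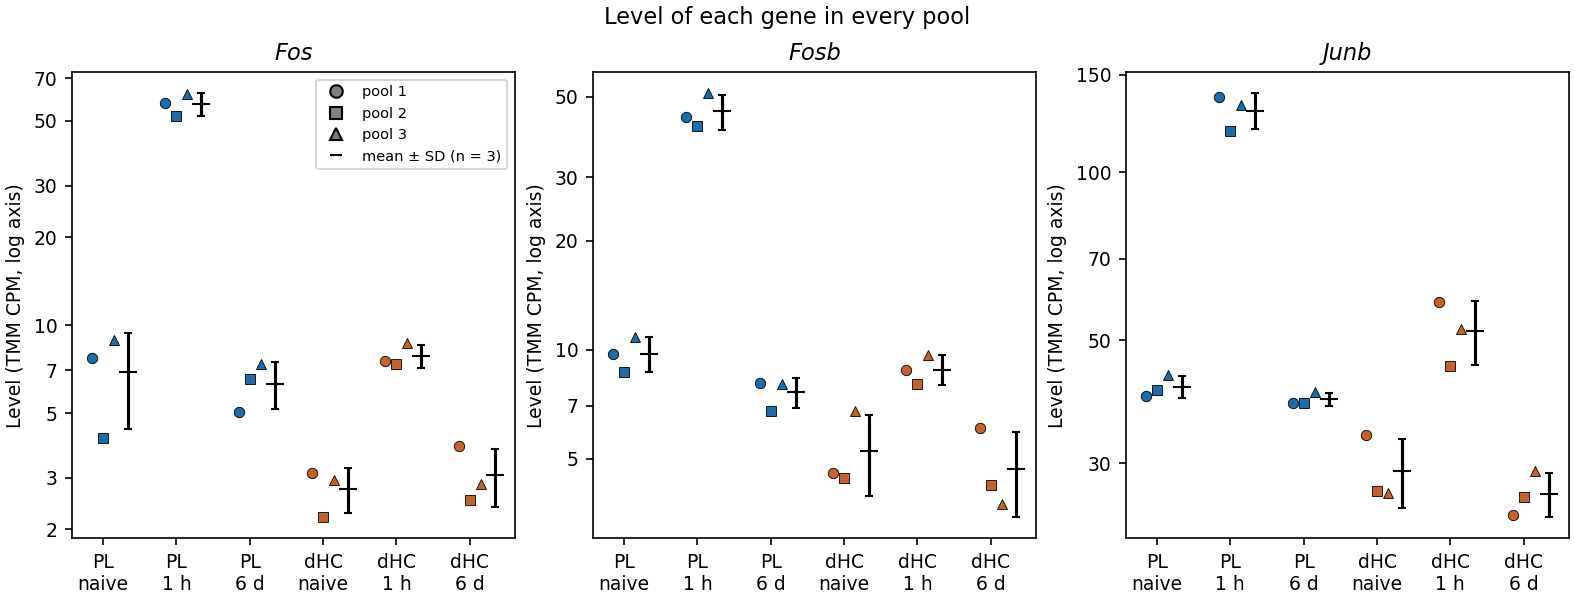
Level of Fos, Fosb and Junb in each of the 18 pools, in TMM-scaled CPM on a log axis, with symbols for pools 1 to 3, blue for PL and orange for dHC, and the mean ± SD of each group in black. The PL pools at 1 h stand above all others for each gene, from 51.8 to 61.8 CPM for Fos, 41.6 to 51.1 CPM for Fosb and 118 to 136.8 CPM for Junb.

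In dHC the 3 genes were also higher at 1 h, by smaller factors, and Fos and Junb were called. Fos had 3.12, 2.21 and 2.94 CPM in naive dHC pools 1, 2 and 3, from 28, 17 and 26 reads. At 1 h it had 7.52, 7.35 and 8.68 CPM, from 67, 66 and 79 reads. The groups did not overlap. The means were 2.76 ± 0.486 and 7.85 ± 0.724 CPM (SD, n = 3), a 2.82-fold rise with an interval of 2.08 to 3.81 (log2 fold change 1.49, SE 0.21, edgeR adjusted p = 0.0013), which ranked 3 of 14305 genes by fold.

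Junb had 33.8, 26.7 and 26.6 CPM in naive dHC and 58.6, 45.0 and 52.4 CPM at 1 h, with naive pool 1 above the other naive pools and still below every trained pool. It rose 1.79-fold, with an interval of 1.53 to 2.09 (log2 fold change 0.84, SE 0.11, edgeR adjusted p = 0.000692). Fosb had 4.57, 4.41 and 6.79 CPM in naive dHC, from 41, 34 and 60 reads, and 8.76, 8.01 and 9.67 CPM at 1 h, from 78, 72 and 88 reads. Every trained pool was above every naive pool here as well. The fitted difference was 1.67-fold, with an interval of 1.25 to 2.22 (log2 fold change 0.74, SE 0.20). It did not pass the adjustment over all genes (edgeR adjusted p = 0.163). It passed in 1 of 12 alternatives, the one in which genes with low counts were not filtered out (edgeR adjusted p = 0.0103, in a range of 0.0103 to 0.615). There the log2 fold change was 0.74 (SE 0.19), close to the main fit. In dHC, 0.217% of genes were called higher at 1 h, and 9.37% had all 1 h pools above all naive pools.

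The change at 1 h was then compared between the regions, in a fit over all 18 libraries. For each of the 3 genes the change in PL was larger, and the difference itself was called. On the log2 scale the change in dHC minus that in PL was -1.56 for Fos (SE 0.31, edgeR adjusted p = 0.0327). It was -1.49 for Fosb (SE 0.23, edgeR adjusted p = 0.00343) and -0.81 for Junb (SE 0.14, edgeR adjusted p = 0.00689). In terms of folds, the fitted 1 h fold in dHC was 0.339 times that in PL for Fos, with an interval of 0.218 to 0.528. For Fosb it was 0.356 times (0.256 to 0.494) and for Junb 0.570 times (0.470 to 0.691). Of 14784 genes, 0.0609% were called with a change in dHC below that in PL, 9 genes in all, of which these are 3. At 6 d after training the same difference was called for 0% of genes. The Fos call was lost when any of 8 libraries was left out (pools 1 and 3 of PL at 1 h and of naive dHC, pools 1 and 2 of naive PL and of dHC at 1 h), with an adjusted p of 0.0573 to 0.321, and the Junb call without dHC naive pool 1 (adjusted p = 0.0610). Over 17 alternatives the adjusted p ran from 3.00e-06 to 0.321 for Fos, 1.77e-08 to 0.0287 for Fosb and 7.80e-08 to 0.0610 for Junb.

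Without training the 3 genes were already higher in PL. The naive difference, dHC minus PL, was -1.30 on the log2 scale for Fos (SE 0.24, edgeR adjusted p = 7.18e-05), -0.88 for Fosb (SE 0.18, edgeR adjusted p = 0.000181) and -0.50 for Junb (SE 0.10, edgeR adjusted p = 0.000187). This is a common state of a gene here, since 23.4% of all genes tested were called higher in naive PL than in naive dHC. The PL level of Fos was 2.50 times the dHC level in naive rats, 7.26 times at 1 h and 2.05 times at 6 d. For Fosb these ratios were 1.85, 5.17 and 1.63, and for Junb 1.42, 2.48 and 1.48. In each condition every PL pool was above every dHC pool, for each of the 3 genes. The same held for 27.4% of all genes in naive rats, 28.9% at 1 h and 25.3% at 6 d. The gap was present at every time and widest at 1 h.

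**Figure D2:**
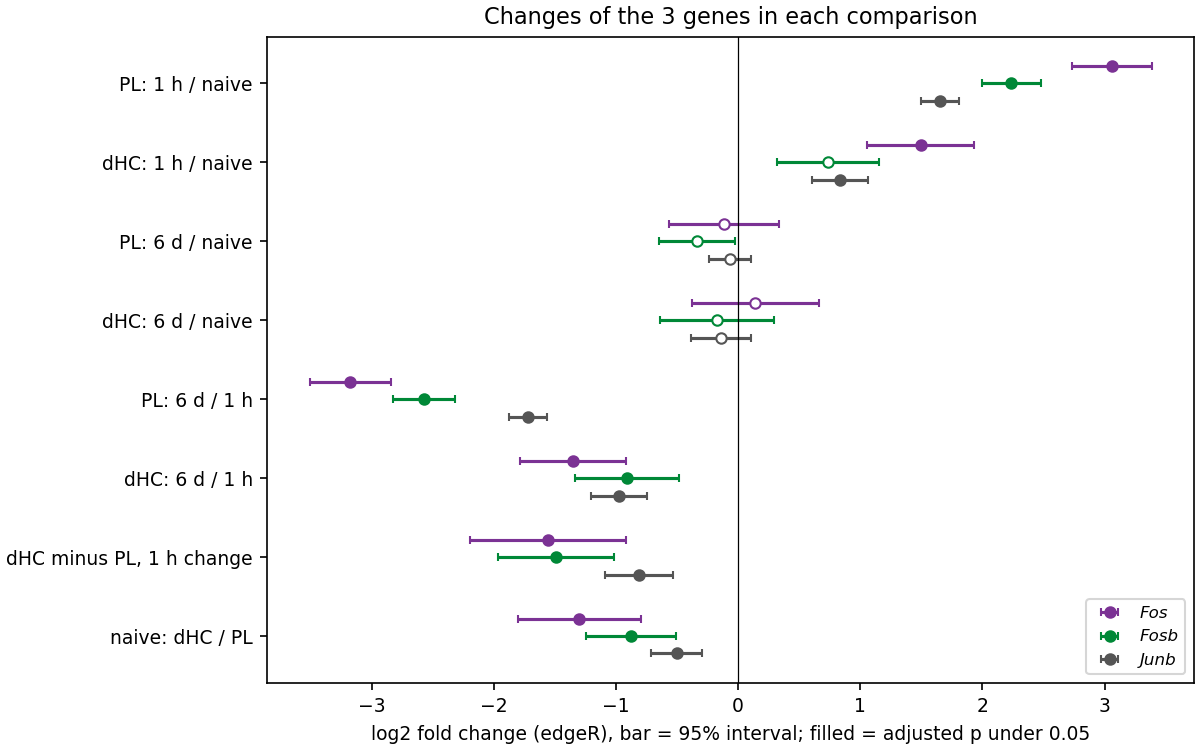
Log2 fold changes of Fos, Fosb and Junb from edgeR with 95% intervals, by comparison, where filled symbols have an adjusted p under 0.05. The 1 h changes run from 3.06 (Fos) to 1.66 (Junb) in PL and from 1.49 (Fos) to 0.74 (Fosb, open symbol) in dHC, and the 6 d changes against naive lie between -0.34 and 0.14.

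At 6 d after training none of the 3 genes was called against naive in either region, and all 3 were lower than at 1 h in both. Fos had 5.05, 6.52 and 7.35 CPM in PL pools 1, 2 and 3 at 6 d, which lay within the range of the naive pools. In dHC it had 3.85, 2.52 and 2.86 CPM, and these pools overlapped the naive ones. The fold against naive was 0.923 in PL, with an interval of 0.676 to 1.26, and 1.10 in dHC, with an interval of 0.771 to 1.58. A lasting change of Fos within these intervals was not detectable with 3 pools.

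Junb had 38.5, 38.6 and 40.4 CPM in PL at 6 d and 24.2, 26.1 and 29.0 CPM in dHC, overlapping the naive pools in both regions. Its intervals were the narrowest, 0.849 to 1.07 times the naive level in PL and 0.766 to 1.08 times in dHC. Fosb had 8.08, 6.78 and 8.03 CPM in PL at 6 d, all below the 3 naive pools. The fitted level was 0.792 times naive, with an interval of 0.638 to 0.984 that leaves out 1, and it did not pass the adjustment over all genes (edgeR adjusted p = 0.999). In PL, 4.09% of genes had all 6 d pools below all naive pools. In dHC, Fosb had 6.09, 4.23 and 3.74 CPM at 6 d, which overlapped the naive pools (0.886 times naive, 0.641 to 1.22). Among all genes, 0% were called at 6 d against naive in either region by edgeR, with 497 genes at an unadjusted p under 0.05 in PL and 804 in dHC. DESeq2 called 0 and 1 genes. Both times were compared with the same naive pools.

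Compared directly, the level at 6 d was 0.111 times that at 1 h for Fos in PL (log2 fold change -3.18, SE 0.16, edgeR adjusted p = 6.27e-12). It was 0.168 times for Fosb (log2 -2.57, SE 0.12, edgeR adjusted p = 3.17e-12) and 0.303 times for Junb (log2 -1.72, SE 0.07, edgeR adjusted p = 1.45e-12). In dHC the level was 0.392 times that at 1 h for Fos (log2 -1.35, SE 0.21, edgeR adjusted p = 0.00282), 0.509 times for Junb (log2 -0.97, SE 0.11, edgeR adjusted p = 0.000107) and 0.532 times for Fosb (log2 -0.91, SE 0.20, edgeR adjusted p = 0.0325). All genes called lower at 6 d than at 1 h made up 1.05% in PL and 0.699% in dHC. For each of the 3 genes and in both regions all 6 d pools lay below all 1 h pools, which held for 10.1% of all genes in PL and 9.51% in dHC. The Fosb call in dHC was lost without dHC 1 h pool 1 or 3 or dHC 6 d pool 2 or 3, with an edgeR adjusted p of 0.0622 to 0.202, in a range of 0.000223 to 0.202 over 12 alternatives. In CPM, Fos had gained 50.1 in PL and 5.09 in dHC at 1 h. At 6 d its mean differed from naive by -0.599 CPM in PL and 0.322 CPM in dHC. For Junb the gains of 87.9 and 23.0 CPM were followed by differences from naive of -2.09 and -2.59 CPM.

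The order of the group means was next described, with neighbours compared by a two-sided exact permutation test, which cannot go below p = 0.1 with 3 pools against 3. For Fos the order from high to low was PL at 1 h, dHC at 1 h, naive PL, PL at 6 d, dHC at 6 d and naive dHC. The trained hippocampus thus came out next to the untrained cortex, with 7.85 and 6.90 CPM and overlapping pools (exact p = 0.9). Neighbours did not overlap between PL at 1 h and dHC at 1 h, and between PL at 6 d and dHC at 6 d (exact p = 0.1 each). For Fosb the order was PL at 1 h, naive PL, dHC at 1 h, PL at 6 d, naive dHC and dHC at 6 d, and only the PL pools at 1 h stood apart from their neighbour. For Junb the order was that of Fos except at its low end, where naive dHC came before dHC at 6 d. Its pools did not overlap between PL at 1 h and dHC at 1 h, between dHC at 1 h and naive PL (52.0 and 41.2 CPM), and between PL at 6 d and naive dHC. Adjusted over the 15 neighbour tests, the smallest exact p was 0.25. Among all genes, every PL pool lay above every dHC pool for 28.9% at 1 h and 25.3% at 6 d. For 9.74%, every PL pool at 1 h lay above every naive PL pool. The share was not computed for neighbours that differ in both region and time.

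Whether the members rose by the same factor was tested on the ratio of one gene to another within a library, in which the library scaling cancels apart from the small prior count. The ratio is of CPM, not per length, so that its change is read and not its level. The pool labels were permuted within each region (exact permutation test over 400 arrangements, two-sided, smallest possible p 0.005). The log2 ratio of Fos to Fosb went from -0.561 to 0.323 in PL and from -0.904 to -0.166 in dHC. Averaged over the regions, Fos thus gained 0.811 on Fosb (exact p = 0.005, adjusted p = 0.0075 over 3 pairs), with the 1 h pools above the naive pools in both regions. Fos gained 1.46 on Junb in PL and 0.660 in dHC, on average 1.06 (exact p = 0.005, adjusted p = 0.0075), again without overlap. Over both regions together, with their pools taken as independent, the rise of Fos was thus steeper than the changes of Fosb and of Junb. Within a single region the exact permutation test of 3 pools against 3 cannot go below p = 0.1, and no ratio could pass there.

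For Fosb against Junb the regions gave different values. In PL the log2 ratio was between -2.22 and -1.99 in naive pools and between -1.63 and -1.37 at 1 h, a gain of 0.576 for Fosb (exact p = 0.1, the smallest that 3 pools against 3 allow). In dHC it was between -2.87 and -1.96 in naive pools and between -2.73 and -2.43 at 1 h, a difference of -0.0779 with full overlap (exact p = 0.9). The average of 0.249 over both regions did not pass (exact p = 0.2, adjusted p = 0.2). It passed without dHC naive pool 3 (0.377, exact p adjusted to 0.02, in a range of 0.02 to 0.45 over 13 alternatives). That pool had the highest Fosb level of the naive dHC pools. Whether the gain of Fosb on Junb differed between the regions was not tested.

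**Figure D3:**
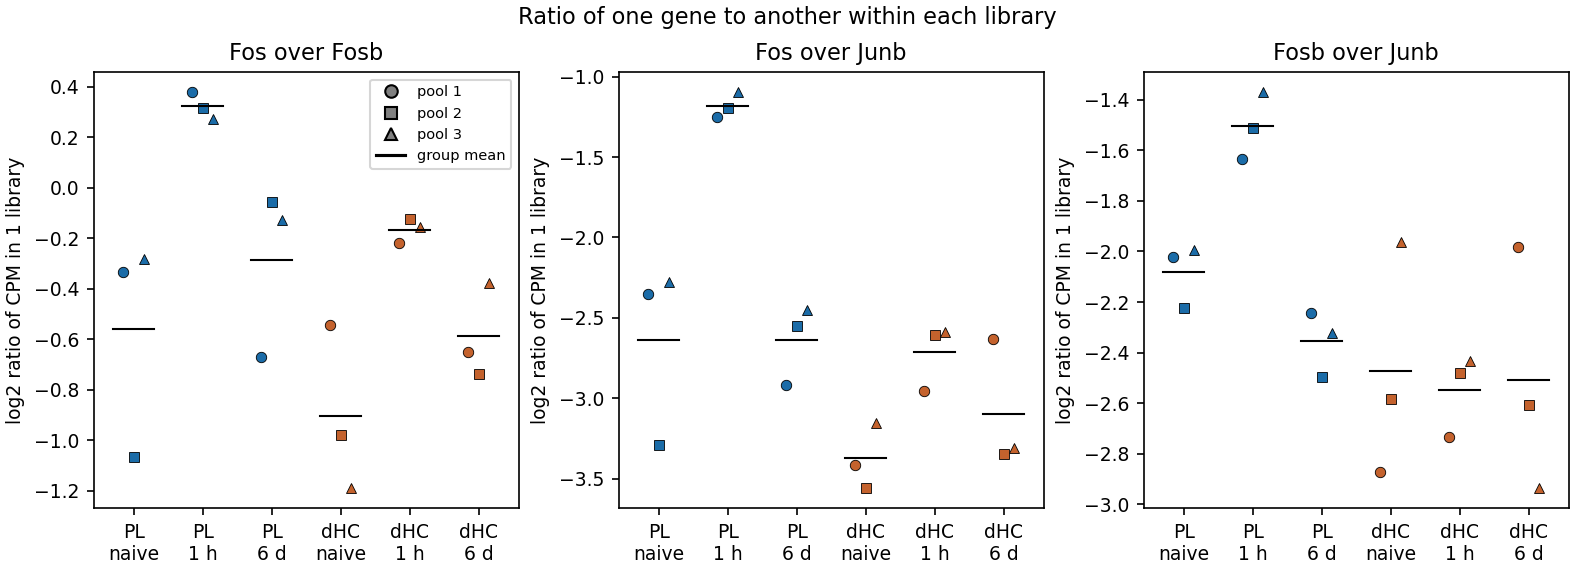
Log2 ratio of the CPM of one gene to another within each library, with symbols for pools 1 to 3, blue for PL, orange for dHC, and a bar for the group mean. Fos gained on Fosb and on Junb at 1 h in both regions, while Fosb gained 0.576 on Junb in PL and -0.0779 in dHC.

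Pools of one group differed in how the members varied. Each coefficient of variation here rests on 3 pools and is imprecise, and its difference from the counting value was not tested. In naive PL, Fos had a coefficient of variation between pools of 36.0%, where its read numbers alone would give 12.9%. Pool 2, at 4.11 CPM, was low for Fos. Fosb was also lowest in this pool, at 8.67 CPM, while Junb was at 40.7 CPM, in the middle of its group. In the other groups Fos varied by 8.87% to 22.5%. It was above its counting value in PL at 1 h (8.87% against 4.49%), PL at 6 d (18.4% against 13.7%) and dHC at 6 d (22.5% against 19.9%). It was below its counting value in naive dHC (17.6% against 20.6%) and in dHC at 1 h (9.22% against 11.9%). Junb varied by 4.50% in naive PL, where counting alone would give 5.28%, and was also below its counting value in PL at 6 d (2.68% against 5.49%). In the other 4 groups Junb varied more than by counting: 7.38% against 2.98% in PL at 1 h, 14.2% against 6.35% in naive dHC, 13.1% against 4.62% in dHC at 1 h and 9.11% against 6.76% in dHC at 6 d. At 1 h, pool 2 was the lowest for all 3 genes in PL and also in dHC, and the labels state no shared origin for these pools. Over all genes passing the filter, the deviations of these pools from their group means correlated at 0.0196. For Fosb, 11.1% was measured in naive PL, where counting alone would give 10.9%, and 25.2% in naive dHC, where it would give 14.9%. Fosb also exceeded its counting value in PL at 1 h (10.9% against 5.01%) and dHC at 6 d (26.5% against 16.1%), and was below it in PL at 6 d (9.68% against 12.4%) and dHC at 1 h (9.40% against 11.2%).

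**Figure D4:**
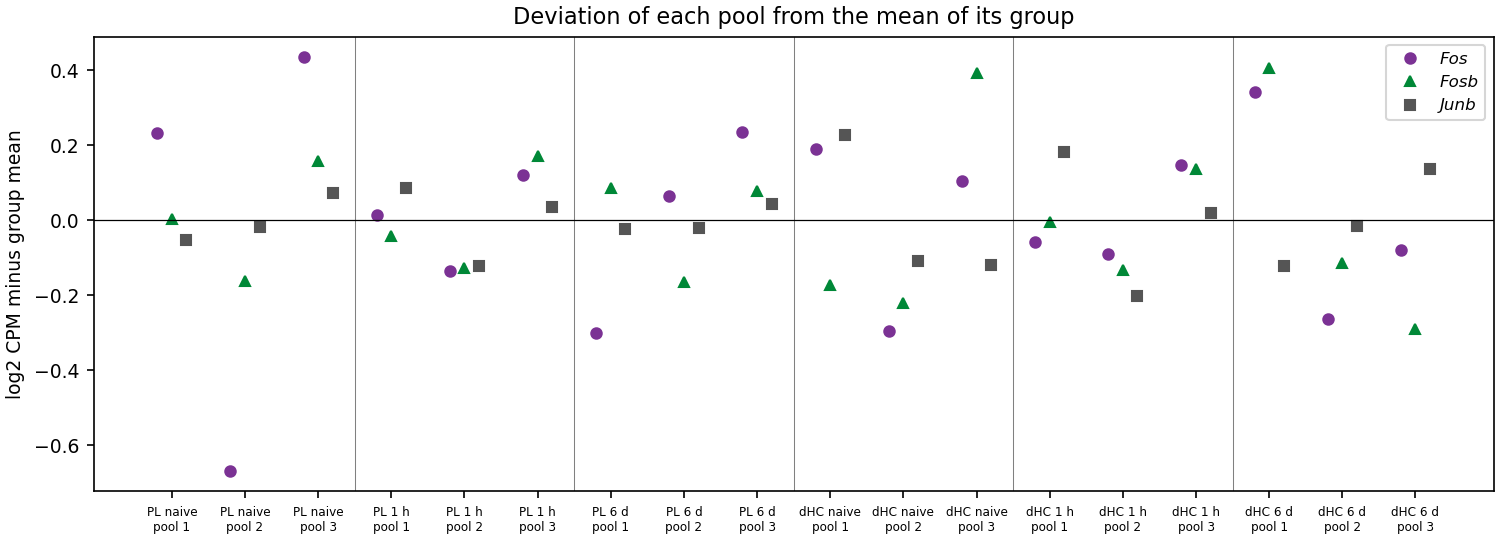
Deviation of each pool from the mean of its group in log2 CPM, for Fos, Fosb and Junb, with groups separated by vertical lines. Naive PL pool 2 is low for Fos, less so for Fosb, and near the group mean for Junb. At 1 h, pool 2 is the lowest of its group for all 3 genes in both PL and dHC.

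The members' profiles were then set against those of all genes, as a description over 18 libraries in which the PL libraries at 1 h stand apart from the rest. For Fos, the gene with the highest Pearson correlation of log2 CPM among 14783 others was Fosb (r = 0.977), followed by Junb (r = 0.970). For Fosb the first was Fos and the next Junb (r = 0.954). For Junb the first was Fos, and Fosb ranked 6. Within PL alone (9 libraries) r was 0.980 for Fos and Fosb, 0.982 for Fos and Junb and 0.992 for Fosb and Junb. Within dHC (9 libraries) it was 0.894, 0.898 and 0.750 for the same pairs. All of these values include the differences between the groups. With the group mean taken from each pool, r over 18 libraries was 0.545, 0.184 and -0.217 for the same pairs. The deviations of all 3 genes shared a sign in 9 of 18 libraries, and how often other genes do so was not computed. Among genes that are no members, the IDs most like the mean profile of the 3 were ENSRNOG00000007387 (r = 0.964) and ENSRNOG00000007607 (r = 0.957), both without a name in the tables. The mean of ENSRNOG00000007387 was 72.6, 135.4 and 70.3 CPM in PL naive, at 1 h and at 6 d, and 57.7, 87.9 and 58.2 CPM in dHC. ENSRNOG00000007607 was at 69.98, 154 and 64.3 CPM in PL and 41.9, 84.8 and 41.8 CPM in dHC.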

How the data were processed

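RNA of PL and dHC punches was sequenced as 18 pooled libraries. The files as deposited hold raw counts per Ensembl gene, whole numbers without any normalization. The 5 closing rows hold reads that no gene received and were left out of all totals and tests (not aligned, 42.0% to 51.8% of reads; no feature, 10.1% to 13.6%; aligned to several places, 5.56% to 7.18%; ambiguous, 0.599% to 0.706%). The submitters' processing notes name the build Rnor_6.0, Picard 1.126, bedtools 2.17.0 and DESeq2, without roles. Aligner, counter, annotation release and strand setting: not given in the sources used here. Hence reads of overlapping or antisense genes may not be told apart. Libraries were made with a stranded, poly(A)-selecting kit, per the labels' protocols.

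Replicates differed by more than counting noise in all 18 pairs (chi-square per degree of freedom 1.67 to 4.98). Tests used R 4.3.3 and edgeR 4.0.16 (glmQLFit, glmQLFTest, TMM, filterByExpr), with the 9 libraries of a region for comparisons within it and all 18 for those between regions. Standard errors were computed from the F statistic. Intervals are at 95%, without adjustment for the number of genes. The pipeline was tested on simulated data that were simpler than these. There all genes had the same relative spread beyond counting, and only the added changes differed between groups. The log2 ratios used a prior of 0.5 counts. The labels call the pools independent, so p-values measure the spread between pools of rats. Tests over both regions also take the PL and dHC pools as coming from different rats, which the labels do not state. Alternatives were DESeq2 1.42.0 (also without its independent filtering, chosen after seeing the data), RLE factors, no filter, other library sets, a replicate block and leaving out each library. The members, lists and tests were chosen with earlier results of these data known. Gene lists of AP-1 partners, upstream factors, rapid activity genes, AP-1 targets and cell type markers had been set by symbol. The reference table matched 0 of the 32662 IDs, so that none of these lists was analysed. Names of the 3 genes are those given with their IDs in the rule. The rule for other named genes took the IDs with the highest correlation, limited to 2 as they have no names.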

Additional observations from a re-analysis of the deposited data

Results flagged for a closer look

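For each of the 3 genes the test of the regional difference in the 1 h change passed (edgeR, fit over all 18 libraries), with a smaller change in dHC than in PL. The difference in log2 fold change, dHC minus PL, was -1.56 for Fos (3.06 in PL and 1.49 in dHC), -1.49 for Fosb (2.24 and 0.74, of which the dHC value did not pass, edgeR adjusted p = 0.163) and -0.81 for Junb (1.66 and 0.84). With each library left out in turn, the Fos call was lost in 8 of 12 fits (edgeR adjusted p = 0.0573 to 0.321) and the Junb call in the fit without dHC naive pool 1 (edgeR adjusted p = 0.0610), while Fosb was called in all 12. Each gene was higher at 1 h than in every naive pool of its region in 3 of 3 pools, in PL and in dHC. The same held for 9.74% of all genes in PL and 9.37% in dHC. At 6 d the same difference was 0.26 for Fos, 0.17 for Fosb and -0.06 for Junb, and none of these passed. Groups of 3 pools are too small for a test of outlying samples, and none was made.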

How the results depend on the processing

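No member changed direction where it was called, under any alternative run. The 1 h rises of the 3 genes in PL, those of Fos and Junb in dHC, the 6 d against 1 h falls of the 3 genes in PL and of Fos and Junb in dHC, the naive difference between regions of the 3 genes and the regional difference of Fosb were called in every alternative that gave an adjusted p. DESeq2 gave no adjusted p for Fos and Fosb in dHC at 1 h against naive and at 6 d against 1 h. Fosb in dHC at 1 h passed only without a filter on low counts, at a log2 fold change of 0.74. With each library left out in turn, calls were lost for Fosb in dHC at 6 d against 1 h (log2 fold change -1.14 to -0.780) and for the regional difference of Fos (-1.77 to -1.30) and Junb (-0.914 to -0.687), and the ratio of Fosb to Junb, not called, gave 0.149 to 0.377 and passed once. The main tests did not pair pools by replicate number. Deviations from group means of same-numbered pools correlated at -0.0514 to 0.177 within regions, over 0.1 in 3 of 18 pairs. Such values cannot show whether the pools were paired. With a replicate block every member kept its call or lack of one, with Fosb in dHC at 1 h at an edgeR adjusted p of 0.0575. For the naive difference between regions, however, the fit with the block gives the difference at replicate 1 and not the mean over pools. Its log2 values there, -1.20 for Fos, -0.83 for Fosb and -0.41 for Junb, are thus not the same quantity as in the main fit. Genes called higher at 1 h went from 112 to 153 in PL and from 31 to 110 in dHC with the block.

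The numbers of genes called in the direction of the members, the background of these results, moved more, and the cause was not tested. Higher at 1 h in PL, 112 genes became 255 without a filter on low counts, 249 in a fit of the compared groups alone, and 52 (without PL 1 h pool 3) to 89 with a library left out. Each of PL 1 h pools 1 to 3 and naive pools 1 and 2 lowered this count by over 1.5 times. Higher at 1 h in dHC, 31 genes became 56 with DESeq2 (51 without its independent filtering), 180 without a filter, 110 with the replicate block, 98 in a fit of the compared groups alone, 48 in one of all 18 libraries, and 14 (without 1 h pool 1) to 38 with a library left out, with naive pool 1 and 1 h pool 3 also lowering it by over 1.5 times. Called at 6 d against naive, 0 genes became 8 in PL and 31 in dHC without a filter, 1 in dHC with DESeq2 in both forms, 3 in dHC with the replicate block, and 0 to 1 with a library left out (1 in PL without naive pool 3, and in dHC without naive pool 2 or 6 d pool 1). Lower at 6 d than at 1 h, 151 genes in PL became 321 without a filter and 88 to 156 with a library left out, lowest without 1 h pools 2 and 3. In dHC, 100 became 324 without a filter, 300 with the replicate block, and 16 (without 1 h pool 3) to 186 (without 6 d pool 3), with 1 h pool 1 and 6 d pool 2 also lowering it. A change at 1 h in dHC below that in PL, called for 9 genes, was called for 42 without a filter and for 5 (without dHC 1 h pool 1) to 10 with a library left out. For the regional difference at 6 d, 0 became 12 without a filter. Counts of 17 to 88 reads per pool limit the precision for Fos and Fosb in dHC.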
